A study of Mus musculus with 4 samples.

Results

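The genes of the cytosolic ribosome encode the proteins of its large (Rpl) and small (Rps) subunits. Table rows were taken as members when the symbol began with Rpl or Rps and a digit, together with Rplp0, Rplp1, Rplp2 and Rpsa, leaving out pseudogene symbols with -ps and the S6 kinases. This gave 85 of the 17813 genes. Of the 85, 77 were subunit genes proper, called core members here, with 46 of the large and 31 of the small subunit. The other 8 rows were the paralogs Rpl3l, Rpl7l1, Rpl22l1, Rpl36al, Rpl39l, Rps27l and Rps27rt, and Rps19bp1, whose product binds ribosomal protein S19 and is no subunit. By symbol, 7 pseudogene rows and 9 S6 kinase rows were left out. The 85 members held 25.2% of all UMIs (unique molecular identifiers, each counting 1 captured RNA molecule).

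Ribosomal proteins are made in matched amounts, assembled on ribosomal RNA in the nucleolus and cytoplasm, and those left unassembled are degraded. Many of their mRNAs start with a C and a run of pyrimidines, the 5′ terminal oligopyrimidine (TOP) element, through which the kinase mTOR and the RNA-binding protein Larp1 set their translation together. A few members have paralogs that can take the same place in the ribosome, and for these the levels differ between tissues.

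The libraries came from chemically induced liver tumours of 5-month-old C57BL/6 mice, 2 samples from Miz1Δhep mice (genotype label Miz1_delta_hep, named for loss of Miz1 in hepatocytes; the driver of the deletion is not given in the sources used here) and 2 from Miz1F/F mice, which carry floxed Miz1. All mice had received diethylnitrosamine (DEN, 25 mg/kg, intraperitoneal) in week 2 of life, followed each week by carbon tetrachloride (CCl4, 0.5 ml/kg in corn oil). Livers were digested and single cells were profiled with droplet-based 3′ chemistry. The deposited table pooled 24802 cells under 4 barcode suffixes, here barcode sets 1 to 4, and no label ties a suffix to a mouse or a genotype. The genotypes were therefore not compared, sets were not treated as replicates, and every value below is a description without a p-value.

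The sets held 2574, 6224, 4825 and 11179 cells with a median of 2648, 906, 1037 and 1859 UMIs per cell, from set 1 to set 4. Altogether 373 barcodes occurred under more than 1 suffix, covering 748 cells. Cells were clustered without the ribosomal protein genes and named from marker genes, which placed 23699 cells in 16 classes and left 1103 cells in 3 clusters unnamed. Names below are marker-based ("B-like") and the Krt8/Sox9 epithelial cluster is named for its leading genes. Hepatocyte-like cells, the cells named by the tumour label, were 1163 of the 24802 cells, and all 8 of their markers were more than 2-fold higher in both of their clusters than in the other cells. RNA of 11 hepatocyte products was found in every class: it took a median of 13.9% of UMIs in hepatocyte-like cells, 3.18% in the Krt8/Sox9 epithelial cluster and 0.0604% to 0.987% in the other 14 classes. In many of these it differed by set, as in B-like cells with 0.121%, 1.12%, 0.121% and 1.04% in sets 1 to 4, so that these medians also reflect which sets a class has.

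The start regions of members that the results turn on are shown first, since promoters and the first bases of the mRNA were not used to choose the members. Each line gives 40 bases before and 20 bases from the RefSeq transcription start on (GRCm38.p6, strand in parentheses, 5′ to 3′ of the gene), so that the last 20 bases lie in the first exon. Capitals mark the run that begins with C and continues with at least 4 pyrimidines. Rplp2 and Rpl38 show the run at the first base, Rpl31 is the member that departed from the family in plasmacytoid dendritic-like cells, and Rps27, Rps27rt and Rps27l include Rps27l, the member of at least 20 CPM with the widest range between classes.
Rplp2, chr7:141447611-141447670 (+): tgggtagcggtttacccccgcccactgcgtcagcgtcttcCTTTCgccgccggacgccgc
Rpl38, chr11:114668540-114668599 (+): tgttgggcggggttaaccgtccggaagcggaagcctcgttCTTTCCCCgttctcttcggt
Rpl31, chr1:39367811-39367870 (+): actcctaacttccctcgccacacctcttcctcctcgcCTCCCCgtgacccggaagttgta
Rps27, chr3:90213629-90213688 (-): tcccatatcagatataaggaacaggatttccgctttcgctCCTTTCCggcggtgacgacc
Rps27rt, chr9:114982720-114982779 (-): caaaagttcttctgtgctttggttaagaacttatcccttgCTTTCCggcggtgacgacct
Rps27l, chr9:66946046-66946105 (+): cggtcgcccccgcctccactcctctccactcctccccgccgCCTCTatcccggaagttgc

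In Rplp2, Rpl38, Rps27 and Rps27rt the run opened the transcript, whereas in the Rps27l start shown it began at base 2 (a second start of Rps27l in RefSeq, not shown, had no such run) and in Rpl31 at 3 bases before the annotated start. Of the 77 core members, 57 had a start region in the RefSeq table. A run at the first base was found in 13 of these 57 (22.8%), against 2.96% of the 26960 other genes with a start region, and a run beginning within 10 bases of the start was found in 59.6% against 34.3%. In the window of 250 bases before to 50 after the start, read on both strands, CCGGAAG (the core of ETS factor sites) occurred in 42.1% of core members against 9.86% of other genes. GGGCGG (the GC box) occurred in 61.4% against 38.1%, AAGATGGC (the core of YY1 sites) in 8.77% against 3.18%, and TATAAA in 10.5% against 15.7%. These counts describe letters in a window and do not show binding. A gene was counted when any of its annotated starts had the run or motif. The annotated starts were taken as given, and a start misplaced by a few bases could change the first-base count. Downstream of the start, Rps27rt and Rps27 shared a run of 38 bases within the first 50, whereas in the 250 bases upstream their longest shared run was 10 bases. Over the whole transcript, 90.4% of the 31-base words of Rps27rt occurred in Rps27, so that reads of this pair could not be fully told apart and Rps27rt is reported as uncertain. Rps27l, Rpl22l1, Rpl36al and Rpl3l shared no 31-base word with Rps27, Rpl22, Rpl36a and Rpl3.

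By the median over sets, the family took the largest share of UMIs in B-like and T-like cells and the smallest in erythroid-like and neutrophil-like cells. For each class the share of UMIs on the 85 members was averaged over cells within each set having at least 20 cells of the class. B-like cells had shares of 42.2%, 41.1%, 40.9% and 37.4% in sets 1 to 4, and T-like cells had 39.3%, 41.0%, 40.9% and 38.2%. These ranges overlapped, and no other class reached them in any set. Dendritic-like cells (median of the sets 33.9%) and NK/ILC1-like cells (32.3%) followed, then basophil/mast-like cells (28.1%, 3 sets), plasmacytoid dendritic-like cells (27.9%) and monocyte/macrophage-like cells (24.0%).

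The parenchymal and stromal classes lay close together. Endothelial-like cells had a median share of 20.8%, the Krt8/Sox9 epithelial cluster 20.1% (3 sets), cholangiocyte-like cells 18.4% (2 sets), hepatocyte-like cells 18.03%, and stellate/fibroblast-like cells 21.5% in set 3, the only set with 20 of them. Their set values ranged over one another, so that their order is not resolved. Plasma-like cells had 15.1%, 22.6%, 18.6% and 16.9%, all below the B-like values of the same sets. Kupffer-like cells, which are sinusoidal macrophages, varied least among sets, with 16.5%, 16.5%, 16.2% and 16.98%. Neutrophil-like cells (8.95%, 16.9%, 19.6% and 11.5%) and erythroid-like cells (6.51%, 17.97%, 16.03% and 8.08%) varied most, and in sets 2 and 3 the neutrophil-like values lay above the Kupffer-like ones, so the order at the low end differs by set.

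**Figure D1:**
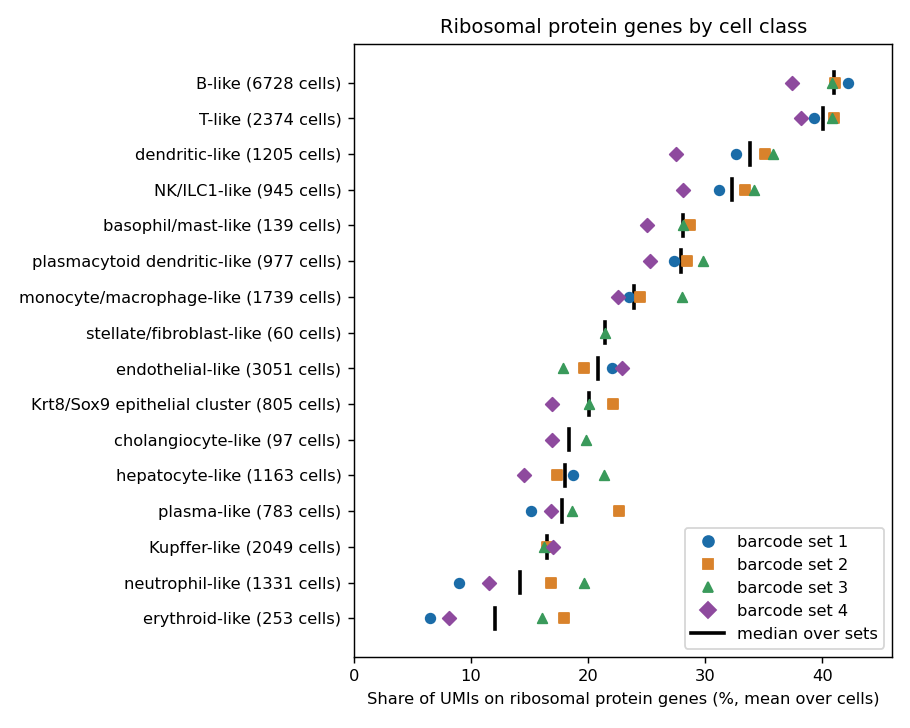
Share of UMIs on the 85 ribosomal protein genes (x axis, percent, mean over cells) in each of 16 marker-based classes (y axis). Symbols are the 4 barcode sets and the black bar is their median. B-like and T-like cells sit between 37.4% and 42.2% in every set, and neutrophil-like and erythroid-like cells spread from 6.51% to 19.6%.

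Some of these shares moved with a few very abundant mRNAs of the class. Haemoglobin mRNAs took a median of 62.0% of UMIs in erythroid-like cells, and immunoglobulin mRNAs took 46.5% in plasma-like cells. When the 30 non-member genes that reached 10000 CPM (UMIs per 1000000 UMIs of the cell) in a class were left out of the total, the family share became 30.8% in erythroid-like cells, 34.1% in plasma-like cells and 43.7% in B-like cells. The share also differed with depth within sets, in both directions. The deeper cells of the neutrophil-like class had a median share of 19.3% and its shallower cells 9.11%, and in T-like cells the values were 44.8% and 35.3%. In hepatocyte-like cells the deeper cells had 16.8% and the shallower 19.3%, in erythroid-like cells 8.97% and 13.5%, and in the Krt8/Sox9 epithelial cluster 20.04% and 20.1%. The part of depth in these differences was not tested.

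Within classes, clusters differed in the family. The neutrophil-like class joined cluster 2, led by Camp, Ngp, Elane and Mpo, genes of granule proteins made by immature neutrophils, and cluster 0. The latter was led by G0s2, Acod1, S100a9 and Il1r2, and S100a8 was among the leading genes of both. The name of cluster 2 depended on the clustering resolution, here 1.0. At 2.0, 188 cells led by Elane and Mpo had no class name, and 91 led by Ngp and Camp were neutrophil-like. At 0.5, 104 cells led by Ngp and Camp were neutrophil-like, and Elane and Mpo were among the leading genes of the dendritic-like cluster. Markers of cycling cells were also higher in cluster 2, with a mean log2 difference from all other cells of 2.41 in cluster 2 and -0.77 in cluster 0; their part in the family's difference was not tested. The family took 14.7%, 29.6%, 27.6% and 20.2% of UMIs in cluster 2, against 7.72%, 13.6%, 12.8% and 10.6% in cluster 0, so cluster 2 was higher in each set. The core median log2 ratio of cluster 2 over cluster 0 was 1.18 (1.10 to 1.27 over sets), with 75 of 77 core members higher in every set, against 24% of all genes, and 39 were at least 2-fold higher (background 5.58%). Cluster 2 was also deeper, with a median of 4782 UMIs per cell against 940.5 in cluster 0. In hepatocyte-like cells, cluster 17 (led by Fabp1, Gnmt and Arg1) had a median share of 22.8% and cluster 6 (led by Alb, Hpx and Fga) 12.05%, and 72 of 77 core members were higher in cluster 17 in every set (background 35.1%), 2 of them by at least 2-fold (background 4.91%). Here the cluster with the higher share was the shallower, with 1152 UMIs per cell against 2704.5. In Kupffer-like cells, cluster 14 had 20.7% and cluster 7 had 15.03%, with 69 of 77 core members higher in cluster 14 in every set, against 13.2% of all genes, and 1 at least 2-fold higher (background 0.457%). The core median of this pair was 0.64 and the median of all genes was -0.35. Cluster 14 was the shallower, with a median of 837.5 UMIs per cell against 1676 in cluster 7. In T-like cells, cluster 11 (led by Tcf7 and Cd28) differed little from cluster 15 (led by Cd3g and Ccl5): the core median was 0.10 (-0.03 to 0.24), with 24 of 77 higher in every set (background 10.9%) and none by 2-fold (background 0.167%). Cluster 11 had a median of 857 UMIs per cell and cluster 15 had 2767. The hepatocyte-like, Kupffer-like and T-like cluster pairs rest on 3 sets each.

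All 77 core members were found at 20 CPM or more in every class, from 251.8 CPM (Rpl3 in basophil/mast-like cells) to 23902 CPM (Rps27 in B-like cells). UMIs count molecules and were not divided by transcript length. The 4 highest members by mean level over the classes were Rpl41 (9832 CPM), which encodes the shortest ribosomal protein, Rpl37a (9475 CPM), Rps29 (9452 CPM) and Rps27 (9290 CPM). At the other end, the lowest core members were Rpl7a (866.2 CPM) and Rpl29 (925.4 CPM). The highest class was T-like for 41 core members and B-like for 25, and the lowest was erythroid-like for 61. The same counts were not made for all genes, so they are no result about the members alone. Haemoglobin mRNA, given above for erythroid-like cells, is part of the UMI total there, and its part in these counts was not tested. Across the 16 classes the Pearson r of a core member with the rest of the family had a median of 0.92 and ranged from 0.37 (Rpl31) to 0.98 (Rps13), and 51 of 77 reached 0.9. The classes share libraries and free RNA, so these correlations only describe the profiles.

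To separate a member from the shift of the whole family, its log2 level (CPM + 10) was taken minus the median of the core members in the same class and set. The result was then set against the median of the other classes in that set. On this relative scale Rpl27a, Rps7, Rpl23 and Rpl11 kept the narrowest range over classes, 0.35, 0.38, 0.46 and 0.48. Rpl11, with Rpl5, is part of the complex that binds the p53 ligase Mdm2 when assembly is disturbed. Rpl27a had 4131 CPM in B-like cells and 1323 CPM in erythroid-like cells, close to the family's own ratio, since its relative differences were -0.04 and 0.08. The widest ranges among members of at least 20 CPM belonged to Rps27l (4.31), Rpl3 (2.53), Rpl31 (2.42), Rps19bp1 (2.09), Rps27 (2.04), Rpl38 (2.02), Rpl36al (1.98) and Rps2 (1.79).

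**Figure D2:**
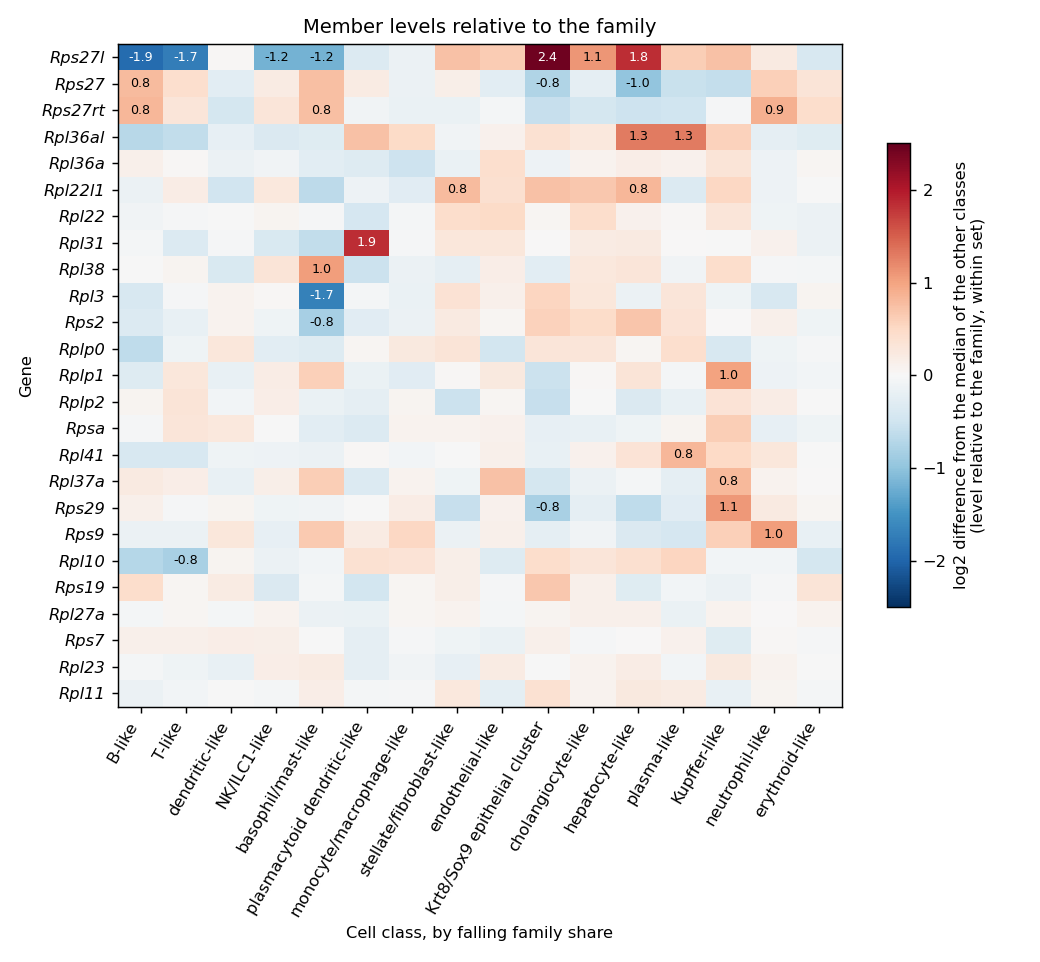
Level of 25 members relative to the family (rows) in 16 classes (columns, by falling family share), as the log2 difference from the median of the other classes within each set, median over sets; values of 0.75 or more in size are printed. Rps27l is at 2.43 for Krt8/Sox9 epithelial cells and at -1.92 in B-like cells, Rpl31 stands alone at 1.85 in plasmacytoid dendritic-like cells, and the 4 lowest rows stay near 0.

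Rpl31, a large subunit protein near the exit of the nascent chain tunnel, stood apart in a single class. Its level in plasmacytoid dendritic-like cells was 8233, 7056, 7634 and 5521 CPM in sets 1 to 4, against 2775, 2241, 2418 and 1874 CPM in dendritic-like cells of the same sets. The lowest plasmacytoid value lay above the highest dendritic value, and the log2 ratio was 1.61 (1.55 to 1.65 over sets). Relative to the family and the other classes the difference for Rpl31 was 1.86, 1.85, 1.90 and 1.68, and in T-like cells, where the family was near its highest, it was -0.35. Rpl31 lies at chr1:39367842-39371911 on the plus strand of GRCm38.

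Rps27 and its paralog Rps27l both encode the small subunit protein eS27. They ran in opposite directions between B-like and hepatocyte-like cells, but not between all classes. The log2 ratios of Rps27 and Rps27l were opposite for plasma-like over B-like cells (-2.40 and 1.17). Both were lower in every set for neutrophil-like over monocyte/macrophage-like cells (-0.38 and -0.50). Both were higher in every set for the Krt8/Sox9 epithelial cluster over hepatocyte-like cells (0.49 and 0.85). Rps27 had 15643, 32149, 29530 and 18275 CPM in B-like cells, against 2668, 4121, 3621 and 2723 CPM in hepatocyte-like cells. For Rps27l, whose transcription is inducible by p53, the order was turned round. Hepatocyte-like cells had 1009, 1522, 1565 and 1471 CPM of Rps27l and the Krt8/Sox9 epithelial cluster had 2902, 2010 and 2650 CPM in sets 2 to 4, whereas B-like cells had 212.0, 331.0, 197.2 and 320.4 CPM. The ratio of Rps27l to Rps27 was 0.50 in the Krt8/Sox9 epithelial cluster (0.40 to 0.71 over sets), 0.41 in hepatocyte-like cells (0.37 to 0.54), 0.016 in T-like cells (0.011 to 0.021) and 0.012 in B-like cells (0.0067 to 0.018). The ranges of the Krt8/Sox9 epithelial cluster and hepatocyte-like cells did not approach those of T-like and B-like cells. Other classes lay between. Cholangiocyte-like cells, also epithelial, had 0.165 (0.157 to 0.173, 2 sets), within the range of plasma-like cells (0.147, 0.096 to 0.191). Rps27l lies at chr9:66946086-66949516 (+) and Rps27 at chr3:90212522-90213651 (-). The uncertain Rps27rt followed Rps27, with 1711 CPM in B-like cells and 302.2 CPM in hepatocyte-like cells.

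Rpl36al, an autosomal copy (chr12:69182731-69184083, -) of the X-linked Rpl36a, was high in plasma-like, plasmacytoid dendritic-like and hepatocyte-like cells. Plasma-like cells had 976.7, 1502, 1402 and 1377 CPM of Rpl36al, against 918.1, 622.7, 648.9 and 852.4 CPM in B-like cells. Rpl36a went the other way, with 1576 CPM in plasma-like and 3555 CPM in B-like cells. The ratio of Rpl36al to Rpl36a was 0.88 in plasma-like cells (0.64 to 1.06 over sets) and 0.22 in B-like cells (0.15 to 0.31). In monocyte/macrophage-like cells it was 0.69 with a wide range of 0.40 to 1.11.

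Rpl22l1 and its partner Rpl22, which in mice is required for the development of αβ T cells, had their highest median ratios over sets in the epithelial classes. The ratio of Rpl22l1 to Rpl22 was 1.29 in the Krt8/Sox9 epithelial cluster (0.71 to 1.43), 0.97 in hepatocyte-like cells (0.79 to 1.61) and 0.86 in cholangiocyte-like cells (0.81 to 0.91, 2 sets), against 0.71 in T-like cells (0.55 to 0.96), 0.54 in B-like cells (0.48 to 0.82) and 0.44 in dendritic-like cells (0.38 to 0.59). Ranges of neighbouring classes overlapped. Set 4 had the highest ratio of Rpl22l1 to Rpl22 in each of these classes except the Krt8/Sox9 epithelial cluster. The cholangiocyte-like median therefore also reflects the sets it has. In set 4 its ratio (0.91) lay below those of NK/ILC1-like (1.04), neutrophil-like (1.03), erythroid-like (1.03), plasmacytoid dendritic-like (1.02), endothelial-like (0.98) and T-like cells (0.96).

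**Figure D3:**
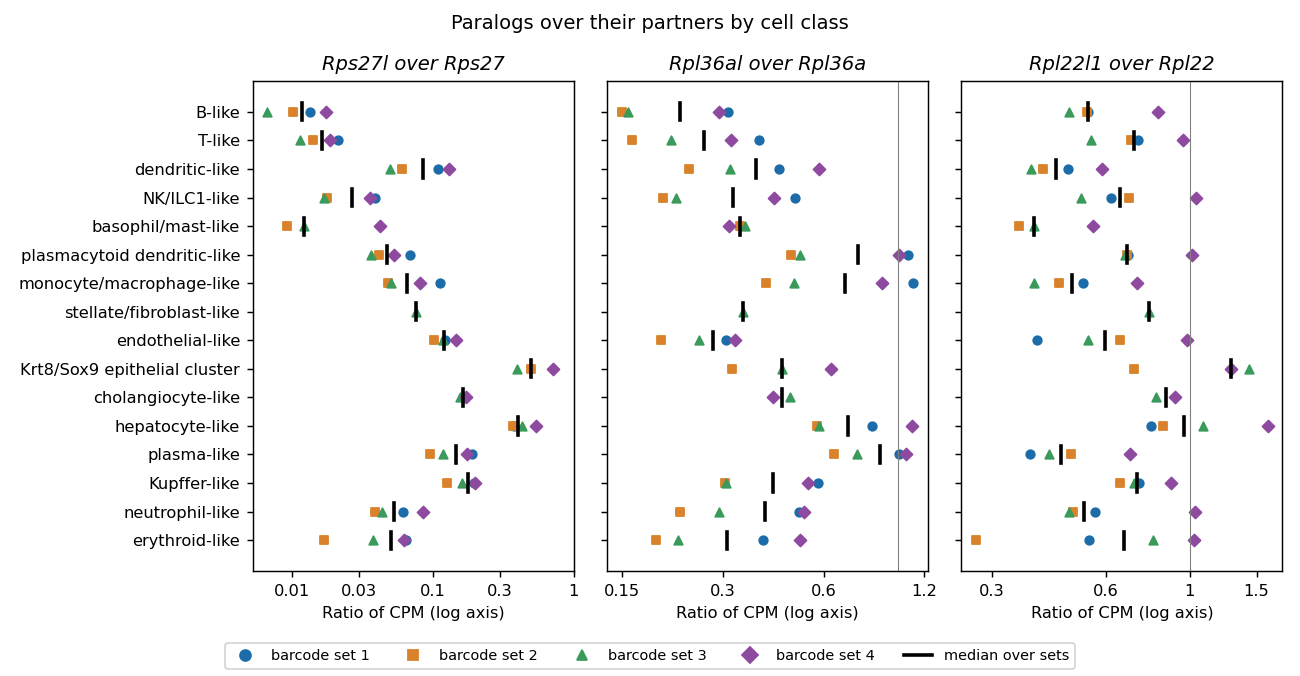
Ratio of the level of a paralog to that of its partner (x axes, log scale) in 16 classes (y axis, by falling family share), with symbols for the barcode sets and a bar for their median. Rps27l over Rps27 spans 0.012 (B-like cells) to 0.50 (Krt8/Sox9 epithelial cluster), a wider spread than for Rpl36al over Rpl36a (0.22 to 0.88) or Rpl22l1 over Rpl22 (0.39 to 1.29).

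Rpl3l, the paralog of Rpl3 known from striated muscle, had 244 UMIs in the whole table, most of them in neutrophil-like and monocyte/macrophage-like cells. It gave 102 UMIs in neutrophil-like cells (36.8 CPM of the pooled UMIs, 95% exact Poisson interval 29.99 to 44.7), of which 95 were in cluster 0 and 7 in cluster 2, and 96 UMIs in monocyte/macrophage-like cells (16.9 CPM, 13.7 to 20.6). By set, the neutrophil-like UMIs of Rpl3l were 35, 6, 2 and 59. Endothelial-like cells had 18 UMIs (1.89 CPM), and T-like and plasma-like cells had 0, which allows up to 0.706 and 0.576 CPM (3 UMIs of the class total). Rpl39l, known from testis, had 32 UMIs in all and at most 9 in a class (T-like), so it was at the edge of detection. These intervals cover counting error only. Rpl7l1, a relative of Rpl7, stayed at 5.54 to 60.8 CPM, highest in hepatocyte-like cells, and Rps19bp1 at 9.71 to 60.1 CPM, highest in the Krt8/Sox9 epithelial cluster.

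Basophil/mast-like cells, 139 in number, had the lowest level of Rpl3 and the highest of Rpl38 relative to the family among the classes, by the median over sets. Rpl3, which lies at the peptidyl transferase centre, had 195.4, 251.8 and 1174 CPM there in sets 2, 3 and 4, and its relative difference was -1.89, -1.68 and -0.95. Rpl38, which in mice is needed for normal patterning of the axial skeleton, had 11813, 10995 and 4898 CPM, with relative differences of 1.16, 1.04 and 0.54. Rps2 was lower by the same measure (-0.69, -0.87 and -0.83) and higher in hepatocyte-like cells (0.58, 0.78, 1.05 and 0.40). Set 4 was nearest to the other classes for Rpl3 and Rpl38, and set 1 held too few of these cells.

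Next, 6 pairs of related classes were compared within sets for genes averaging 20 CPM or more over the pair, as log2 ratios of (CPM + 10). A gene was counted as higher or lower when it was so in every set with 20 cells of both classes. In plasma-like over B-like cells, the antibody-secreting descendants of B cells, 72 of 77 core members were lower, where 56.3% of all 4077 genes were lower, and none was higher (background 9.05%). The core median was -1.08 (-1.52 to -0.75 over sets) and the median of all genes was -0.76. Rps27 fell farthest of the core members, with 4226 CPM in plasma-like and 23902 CPM in B-like cells (log2 ratio -2.40, -2.53 to -2.27). Rpl41 had 12066 and 12502 CPM (-0.08), Rplp0 had 2635 and 2973 CPM (-0.11) and Rpl10, a late-joining protein needed for subunit joining, had 3215 and 3240 CPM (0.16), in plasma-like and B-like cells in that order. Rps27l (1.17, 0.85 to 1.58) and Rpl36al (0.89, 0.09 to 1.26) were higher in plasma-like cells in every set. Plasma-like cells also carried the immunoglobulin mRNA given above, whose part in this pair was not tested on its own. Without all 30 abundant genes, immunoglobulin among them, the core median became -0.29 and 45 core members were lower and 3 higher in every set. With each set centred on its all-gene median, it was -0.34 with 41 lower and 3 higher, and Rplp0, Rpl10 and Rpl41 were then higher in every set (0.63, 0.91 and 0.67). The shares of all genes called under these other scalings are not given, so these counts have no background and describe the core only.

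In T-like over NK/ILC1-like cells the family was higher in T-like cells, with 70 of 77 core members higher in every set against 11.7% of 4959 genes. The core median was 0.32 (0.22 to 0.43) and the median of all genes was -0.10. Rpl10 was the only core member lower in every set (background 22.3%), with 2957 CPM in T-like and 3670 CPM in NK/ILC1-like cells (-0.36, -0.42 to -0.14), and stayed lower under both other scalings (-0.28 and -0.38). Rps19, mutated in Diamond-Blackfan anaemia in humans and singled out here after its values were seen, had the largest ratio (0.69, 0.53 to 0.96), with 7447 CPM in T-like and 4558 CPM in NK/ILC1-like cells. Rpsa, the small subunit protein also known as the laminin receptor, had 4207 CPM in T-like and 2809 CPM in NK/ILC1-like cells (0.60, 0.58 to 0.63).

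Kupffer-like over monocyte/macrophage-like cells showed a lower family, with 66 of 77 core members lower in every set against 16.8% of 5281 genes, although the median of all genes was higher (0.19). The core median was -0.64 (-0.84 to -0.54). The 3 proteins of the stalk, which recruits the elongation factors, did not move as a unit. Rplp0, the base of the stalk, had 1578, 790.1, 813.5 and 1534 CPM in Kupffer-like cells, against 4766, 1967, 1989 and 3723 CPM in monocyte/macrophage-like cells (-1.29, -1.59 to -1.27). Rplp1, which binds it as a dimer with Rplp2, had 5563, 6218, 6536 and 4569 CPM in Kupffer-like cells, against 3370, 5116, 5157 and 2895 CPM in monocyte/macrophage-like cells (0.50, 0.28 to 0.72), and was the only core member higher in every set (background 31.2%). Rplp2 was lower by less (-0.48, -0.70 to -0.07). With all genes centred, Rplp1 was still higher in every set (0.31).

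In neutrophil-like over monocyte/macrophage-like cells, 76 of 77 core members were lower in every set, against 34.9% of 4656 genes, and none was higher (background 18.4%), with a core median of -0.77 (-1.49 to -0.52) and a median of all genes of -0.24. Rpsa had 973.9 CPM in neutrophil-like and 2388 CPM in monocyte/macrophage-like cells (-1.06), and Rps27 differed least among the core (-0.38). This pair changed with the cells kept and their weighting: in cells with at least 500 genes the core median was -0.03 with 3 core members lower in every set, with UMIs summed over cells it was -0.13 with 10, and in cells of 1000 to 2000 UMIs it was -0.77 with 35. The shares of all genes called in these alternatives are not given, so these counts have no background. The class joins clusters 0 and 2, which differ in both depth and family share as given above, so a filter on genes also changes the mixture of clusters, and the parts of depth and mixture cannot be told apart here.

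In plasmacytoid dendritic-like over dendritic-like cells, 65 of 77 core members were lower in every set against 17.2% of 5061 genes, with a core median of -0.30 (-0.36 to -0.16) and a median of all genes of 0.27. Rps19 (-0.87) and Rpsa (-0.77) were lowest, and Rpl31 (1.61) stood opposite to them; Rpl31 and Rpl10 were the 2 core members higher in every set (background 41.8%). Rpl10 (0.11, 0.02 to 0.35) was no longer so with all genes centred (-0.14, -0.27 to 0.10) or without the abundant genes (0.08, -0.01 to 0.34), whereas Rpl31 was higher under both. Rpl36al was higher as well (0.54, 0.39 to 0.73), with 1382 CPM in plasmacytoid dendritic-like and 930.0 CPM in dendritic-like cells.

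The Krt8/Sox9 epithelial cluster over hepatocyte-like cells showed no shift of the family that held in every set. The core median was 0.21 (-0.07 to 0.42, sets 2 to 4) and that of all genes 0.31, and 31 of 77 core members were higher in every set, against 43.8% of all 5271 genes, with 5 lower (background 18.5%). This count was 67 with UMI sums, 61 in cells with at least 500 genes and 63 without set 3, and it was 9 with cells called one by one by markers, where the core median was -0.29. Rps19 had 5781 CPM in the Krt8/Sox9 epithelial cluster and 2833 CPM in hepatocyte-like cells (1.08, 0.69 to 1.33). Rps27l was higher too (0.85, 0.36 to 0.93), whereas Rpl36al (-0.69) and Rplp1 (-0.39) were lower in every set. With all genes centred, 4 core members were higher and 25 lower in every set, and Rps27l no longer differed in one direction (-0.15 to 0.64). The shares of all genes called in these alternatives are not given, so their counts have no background.

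Few core members passed a 2-fold difference in every set. In plasma-like over B-like cells 19 of 77 were at least 2-fold lower (16.8% of all genes) and none was 2-fold higher (2.6% of all genes). In Kupffer-like over monocyte/macrophage-like cells 3 were 2-fold lower (background 3.35%) and none higher (5.85%), and in plasmacytoid dendritic-like over dendritic-like cells Rpl31 alone was 2-fold higher (7.07%) and none lower (4.74%). No core member passed in either direction in T-like over NK/ILC1-like cells (background 0.968% higher and 1.59% lower), in neutrophil-like over monocyte/macrophage-like cells (4.32% and 4.79%) or in the Krt8/Sox9 epithelial cluster over hepatocyte-like cells (8.1% and 4.27%).

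**Figure D4:**
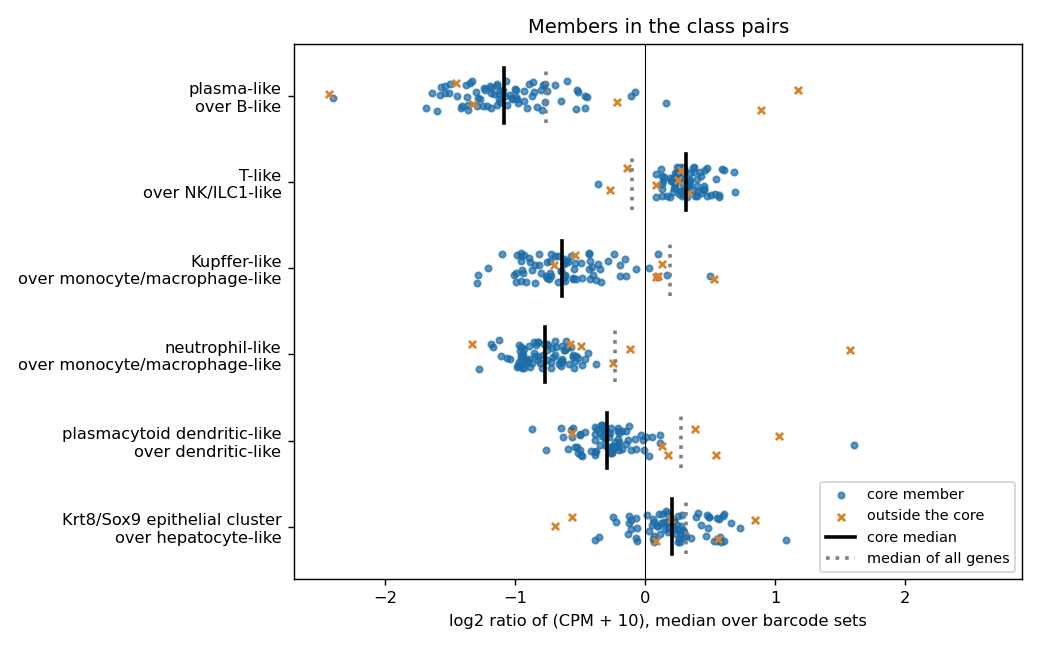
Log2 ratio of (CPM + 10) of each member in 6 class pairs (rows), first class over second, median over barcode sets. Blue points are core members, orange crosses the rows outside the core, the black bar the core median and the dotted bar the median of all genes; the core lies below all genes in 5 pairs and above them in T-like over NK/ILC1-like cells (0.32 against -0.10).

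Other genes of translation were read in the same pairs. Of 19 further mRNAs known to carry a TOP element (elongation and initiation factors, Fau, Rack1, Tpt1 and others), 18 were lower in every set in plasma-like over B-like cells (median -0.83), 13 were higher in T-like over NK/ILC1-like cells (0.18), and 12 were lower in Kupffer-like over monocyte/macrophage-like cells (-0.43). In neutrophil-like over monocyte/macrophage-like cells 18 were lower (-0.86, against a core median of -0.77), in plasmacytoid dendritic-like over dendritic-like cells 12 were lower (-0.22), and in the Krt8/Sox9 epithelial cluster over hepatocyte-like cells 11 were higher (0.44, against a core median of 0.21). The background of all genes for these calls is given above with each pair. The 4 highest of the list were Tpt1, Fau, Eef1a1 and Rack1. Eef1a1, which brings aminoacyl-tRNA to the ribosome, had 5740 CPM in T-like and 1725 CPM in neutrophil-like cells. Rack1, a scaffold on the small subunit, had 1671 CPM in T-like and 428.3 CPM in neutrophil-like cells. Fau, which encodes ribosomal protein S30 fused to a ubiquitin-like protein and falls outside the rule, had 9080 CPM in B-like and 2479 CPM in hepatocyte-like cells.

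Of 34 ribosome biogenesis genes, 22 passed the level filter in plasma-like over B-like cells and 17 were lower in every set, where 56.3% of all genes were lower (list median -0.81, all genes -0.76). In neutrophil-like over monocyte/macrophage-like cells 8 of 14 were lower (median -0.63, background 34.9%), in the Krt8/Sox9 epithelial cluster over hepatocyte-like cells 10 of 21 were higher and 2 lower (0.50, background 43.8% and 18.5%), and in Kupffer-like over monocyte/macrophage-like cells 8 of 22 were higher and 1 lower (median 0.19, the same as that of all genes; background 31.2% and 16.8%). Ncl, nucleolin, had 454.8 CPM in B-like and 144.4 CPM in hepatocyte-like cells, and Fbl, the rRNA methyltransferase fibrillarin, had 201.0 CPM in plasmacytoid dendritic-like and 50.5 CPM in hepatocyte-like cells. Nop10, a protein of the pseudouridylation particles, and Polr1d, a subunit of RNA polymerases I and III, had 305.9 and 260.0 CPM in hepatocyte-like cells.

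Of 16 genes that act on ribosomal protein synthesis, 15 reached 20 CPM in a class; Zbtb17, which encodes Miz1, did not. Mdm2 had 528.2 CPM in the Krt8/Sox9 epithelial cluster and 30.8 CPM in hepatocyte-like cells, and Myc had 105.1 and 3.26 CPM in the same order. Larp1 had 113.5 CPM in the Krt8/Sox9 epithelial cluster and 38.5 CPM in hepatocyte-like cells. Rps6ka1, an S6 kinase of the RSK group, had 151.2 CPM in plasmacytoid dendritic-like and 34.8 CPM in dendritic-like cells, and Rps6ka3 was highest in basophil/mast-like cells (189.1 CPM). Eif4ebp1, a translation repressor that mTOR inactivates, had 182.5 CPM in hepatocyte-like and 13.5 CPM in T-like cells. Eif4e, Eif4ebp2, Larp4, Max, Rps6kb1, Rps6kb2, Mtor, Rptor and Mycn completed the list, and of these Mtor reached at most 26.6 CPM. Of 11 genes listed for ribosome-associated stress and quality control, 9 reached 20 CPM in a class, led by Nemf, Snhg12, Gcn1l1 and Rnf14. Nemf, which binds stalled large subunits, had 62.4 CPM in B-like and 14.8 CPM in hepatocyte-like cells.

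Outside the family, class profiles like its summed level, taken from the 6 most alike among 1178 genes with at least 100 CPM and over 16 classes, were those of Gm11808 (Pearson r 0.94), Nop53 (0.92), Snrpg (0.90), Rack1 (0.88) and Eif3f (0.87). Nop53 encodes a nucleolar assembly factor, Snrpg a protein of the spliceosomal core and Eif3f a subunit of an initiation factor.

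The mixture of members also differed among the barcode sets. For 48 of 77 core members the SD of the relative level over sets within a class exceeded the SD over classes. The first SD was taken from values of single sets and averaged over classes, and the second from class medians over sets. They are therefore unlike measures, and the same count was not made for other genes. Rps28 had 4235, 13432, 13875 and 5938 CPM in B-like cells of sets 1 to 4 and 1577, 3970, 3532 and 2134 CPM in hepatocyte-like cells. Rpl4, by contrast, had 2873, 846.9, 926.2 and 2936 CPM in B-like cells. Averaged over the 12 classes present in all sets, the relative level of Rps28 deviated by -0.97, 0.71, 0.69 and -0.43 (log2) from its mean over sets, and that of Rpl4 by 0.49, -0.68, -0.50 and 0.69. Rps28 was lowest in set 1 in all 12 classes, and Rpl4 was highest in set 4 in 11 of 12. Over the core, 5 of 77 members were highest in the same set in every class, a count that was not made for other genes either. Rps28, Rps21 and Rpl4 were singled out here after their values were seen. Rpl37a (-0.89, 0.70, 0.70 and -0.51) and Rps29 (-0.85, 0.62, 0.57 and -0.34), both named above for their level, went with Rps28.

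Over the 77 core members the set deviation went with the length of the annotated transcript, with a Pearson r with log2 length of 0.51, -0.50, -0.46 and 0.38 in sets 1 to 4. The 19 members with transcripts of up to 500 bases had median deviations of -0.33, 0.39, 0.31 and -0.29, and the 30 with more than 800 bases had 0.16, -0.11, -0.08 and 0.05. Members share libraries, so these values describe the 4 sets. Median UMIs per cell, given above, also differ by set, and neither their part nor that of library preparation or animal was tested. Because of these differences the class pairs, the cluster pairs and the relative differences above were taken within sets. Shares, levels and paralog ratios given as medians over sets, and the class rankings and profile correlations made from them, were not. Those also reflect which sets a class has.

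**Figure D5:**
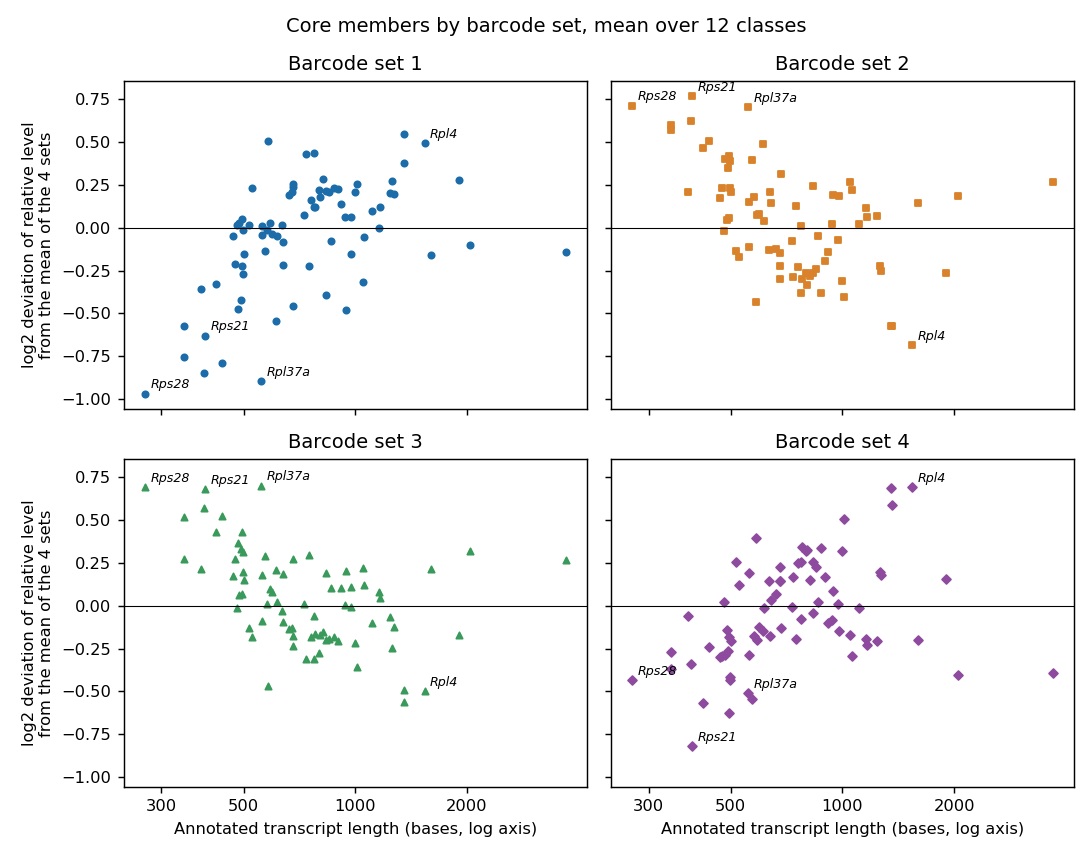
Deviation of each of 77 core members in each barcode set (y axes, log2, relative level minus its mean over the 4 sets, averaged over 12 classes) against the length of its annotated transcript (x axes, bases, log scale), 1 panel per set. Rps28 lies at -0.97 in set 1 and at 0.71 in set 2, and Rpl4 at 0.49 and -0.68.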

How the data were processed

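Livers had been digested and cells captured with 10x Genomics 3′ v2 chemistry on a HiSeq XTEN, per the labels' protocols. The submitters' processing notes name CASAVA 1.8, Cell Ranger, Seurat and mm10; the remaining versions and the cell filters are not stated there. The authors deposited natural log values of 1 plus UMIs scaled to 10000 a cell. Dividing out each cell's lowest value gave whole UMIs for 100% of entries above 0 (tolerance 0.001). The table held no mitochondrial gene, and each cell had at least 201 genes.

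Members and lists were chosen with earlier results of these data known. Cells were clustered (scanpy 1.11.5, 2000 variable genes, 30 components, 15 neighbours, Leiden resolution 1.0, ribosomal protein rows left out) and named from markers; no doublet caller was run and no cell removed. The count table gives no map from cells to samples, so the planned limma fit of genotypes was not possible. Levels are means over cells of the UMI share, in CPM; pairs used 10 CPM as pseudocount, 20 CPM as filter and at least 20 cells per set, and calls need 1 direction in every set. The genes named are the 4 highest members, the 8 widest and 4 narrowest on the relative scale, paralogs with partners, stalk proteins, Rpsa, the highest 4 of each other list, expressed regulators, and the 6 genes most like the family, of which 1 is not reported here; others are said to be singled out. Lengths and positions come from GENCODE vM21 (all 85 matched), promoters from RefSeq (65 of 85 matched). Scripts were tested on simulated data. Depth per set was 9093921 to 35033778 UMIs. Calculations used Python 3.11.15.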

Additional observations from a re-analysis of the deposited data

Results flagged for a closer look

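Ribosomal protein RNA was also counted on rows outside the comparisons. The 7 pseudogene rows, left out by the rule, together held 25149 UMIs, or 0.0382% of all UMIs. Rpl10-ps3 had 14925 UMIs, Rpl27-ps3 had 3448, Rpl36a-ps1 had 2717, Rps12-ps3 had 2062, Rpl9-ps6 had 1194, Rpl7a-ps5 had 483 and Rpl13a-ps1 had 320. Their joint share of UMIs was highest in set 4 in each class measured there, as in B-like cells with 0.027%, 0.029%, 0.025% and 0.067% in sets 1 to 4. All 7 rows lie above what a count of 0 allows (3 UMIs), and whether these are reads of the pseudogenes or of their parent genes was not tested.

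The small subunit gene Fau, with 306286 UMIs, carries a symbol that the rule does not reach.

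The 3 clusters without a class name were also left out of the class comparisons. The family took a median of 20.57% of UMIs in cluster 8 (605 cells, led by Ms4a7, Gpnmb and Trem2), 38.29% in cluster 12 (83 cells, led by Top2a and Birc5, set 3 only) and 17.14% in cluster 24 (415 cells, led by Dusp3, C6 and Kdr).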

How the results depend on the processing

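Of 18 alternatives, among 100 core medians 93 kept direction and side, as did 205 of 207 single members; 89 of 100 counts stayed within 1.5 times and 189 of 217 shares within the spread. No paired analysis was possible because no cell is tied to a sample. Family shares without abundant genes in the total were 43.7% (B-like), 34.1% (plasma), 42.9% (T), 26.7% (monocyte/macrophage), 18.7% (Kupffer), 30.3% (plasmacytoid), 30.4% (basophil), 22.6% (hepatocyte), 20.5% (cholangiocyte), 22.9% (stellate) and 30.8% (erythroid). With UMI sums they were 42.1% (T), 17.6% (Kupffer), 22.8% (neutrophil) and 23.1% (stellate). With at least 500 genes they were 16.8% (Kupffer), 24.03% (neutrophil) and 25.7% (basophil). With cells called one by one they were 15.7% (Kupffer), 22.5% (hepatocyte) and 22.3% (erythroid). With 1000 to 2000 UMIs, an alternative chosen after seeing the data, they were 37.3% (NK/ILC1), 17.1% (Kupffer) and 23.3% (basophil). The stellate share was 17.3% at resolution 0.5, 19.5% at 2.0, 21.1% for core members and 21.1% without shared barcodes, the last also chosen after seeing the data. In neutrophil-like over monocyte/macrophage-like cells the core median was -0.13 with UMI sums, -0.032 with 500 genes and -0.77 with 1000 to 2000 UMIs, and 10, 3 and 35 members were lower. In the Krt8/Sox9 epithelial cluster over hepatocyte-like cells it was -0.29 with cells called one by one, 0.40 with UMI sums and 0.35 with 500 genes; 9, 67 and 61 members were higher, 18 at resolution 2.0 and 4 with genes centred. Leaving out a set gave 0.070 to 0.31 and 31 to 63 members, and set 3 decided: without it, 63 were higher. In plasma-like over B-like cells 45 members were lower without abundant genes and 41 with genes centred. The cause was not tested. Shares of all genes called are not given for these alternatives, so the counts describe the core only. Depth limits low members: Rpl39l had 32 UMIs in all.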

Other observations

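A few further core members are given in the class where their relative difference was largest in size, with 1 direction in each set measured; other classes could follow closely, as basophil/mast-like cells did for Rps9 (0.65) and Rplp1 (0.60) and Kupffer-like cells for Rpl41 (0.49). Rps9 was higher relative to the family in neutrophil-like cells (log2 difference 1.04 from the other classes), Rps23 in basophil/mast-like cells (1.28), Rps29 (1.07) and Rplp1 (1.01) in Kupffer-like cells, and Rpl41 in plasma-like cells (0.83). Rps27a, which encodes ribosomal protein S31 fused to ubiquitin, was higher in neutrophil-like cells (0.72). Rpl28 (-0.73) and Rpl10 (-0.81) were lower in T-like cells, Rpl13a (-0.76) in Kupffer-like cells and Rps24 (-0.89) in the Krt8/Sox9 epithelial cluster. These genes were picked after their values were seen.

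The labels put the 4 barcode sets in no group. Values of further members by set, for genes picked after their values were seen, were as follows. The deviations of Rps21 were -0.63, 0.77, 0.68 and -0.82 in sets 1 to 4, those of Rpl38 were -0.75, 0.60, 0.52 and -0.37, those of Rpl41 -0.79, 0.51, 0.52 and -0.24, those of Rpl3 0.38, -0.57, -0.49 and 0.68, and those of Rplp0 0.54, -0.57, -0.56 and 0.59. The uncertain Rps27rt deviated by -0.69, 0.08, -0.19 and 0.80, and its ratio to Rps27 in B-like cells was 0.083, 0.059, 0.052 and 0.17. Rpl34 and Rpl27 deviated by at most 0.05 in any set.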
